A study of Mus musculus with 13 samples.

Results

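The Dlk1-Dio3 region of mouse chromosome 12 carries one of the largest groups of miRNA genes in the genome, and its miRNAs were followed here in small RNA-seq of thymic iNKT cells. The members were the 44 hairpins (precursor miRNAs) named for this cluster, from mmu-mir-770 to mmu-mir-410 (the prefix for mouse is left out below), together with the mature 5p and 3p arms cut from them. Of these 44 hairpins, 40 had a row in the table of 1127 hairpins, and 41 had at least 1 arm among the 1297 mature sequences, which made 65 member arms. The hairpins of mir-495 and mir-154 were followed through their arms alone, mir-485 through its hairpin alone, and mir-758 and mir-654 were not analysed here.

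The samples were FACS sorted iNKT cells, lipid-recognizing T cells whose TCR has an invariant alpha chain, from the thymi of 6 wild type (WT) mice and 7 mice of the genotype Tet2-/-Tet3flx/flxcd4cre (*Tet2/3* DKO), all 21 to 25 days old. *Tet2* is missing from the whole animal in the *Tet2/3* DKO mice, whereas *Tet3* is removed by a cre driven from the CD4 promoter, that is, in T cells from the stage at which they express CD4. Mice of both sexes entered each genotype, and each mouse gave one library. The study asked which small RNAs differ between these genotypes.

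TET2 and TET3 oxidize methylated cytosine in DNA and thereby take part in its demethylation. The Dlk1-Dio3 domain is imprinted: the noncoding RNAs *Meg3*, *Rian* and *Mirg*, and the miRNAs with them, are made from the maternal chromosome, and the protein-coding genes *Dlk1*, *Rtl1* and *Dio3* from the paternal one, under a control region that is methylated on the paternal copy only. The miRNAs are best known from embryonic tissue, placenta, muscle and brain. A miRNA is cut from its primary transcript by DROSHA as a hairpin and from the hairpin by DICER as a duplex, of which one arm is usually kept and pairs with mRNAs mainly through its seed, bases 2 to 8.

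RefSeq gives positions on GRCm38.p6 for 43 of the hairpins, all on the plus strand within chr12:109563692-109743795, a span of 180.1 kb. They fall into 3 stretches: 11 proximal hairpins from mir-770 to mir-136, 2 hairpins (mir-341 and mir-370) in introns of *Rian*, and 30 distal hairpins from mir-379 to mir-410. The distal stretch also holds mir-666, whose arms alone had a position. In the GENCODE annotation mir-770 lies in an exon of *Meg3*, and mir-431, mir-433, mir-127, mir-434 and mir-136 lie opposite an exon of *Rtl1*, whose mRNA they match on the other strand. At the distal end 10 hairpins lie in *Mirg*, within exons (mir-382, mir-134, mir-485, mir-377, mir-412, mir-369 and mir-410) or introns (mir-154, mir-541 and mir-409). The other 25 hairpins lie in no annotated transcript.

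The arms on which most of the results turn are shown here 5′ to 3′ with the seed in capitals, as given by RefSeq, which had a sequence for 63 of the 65 member arms (all but miR-376c-3p and miR-487b-3p). The first 7 are, apart from miR-376c-3p, the arms with enough counts to be tested, and the 8th, miR-337-5p, was found almost only in *Tet2/3* DKO libraries.
miR-369-3p: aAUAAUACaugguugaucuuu
miR-541-5p: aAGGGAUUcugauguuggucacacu
miR-127-3p: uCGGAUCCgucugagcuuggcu
miR-409-5p: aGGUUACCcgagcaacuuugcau
miR-382-5p: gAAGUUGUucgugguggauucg
miR-411-5p: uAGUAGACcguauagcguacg
miR-433-3p: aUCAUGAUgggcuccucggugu
miR-337-5p: cGGCGUCAugcaggaguugauu
Among these, miR-369-3p (chr12:109743466-109743486) has the lowest GC content, 23.8%. The arm lies about 1 kb beyond miR-541-5p (chr12:109742422-109742446), in the same host transcript, and miR-127-3p (chr12:109592888-109592909) belongs to the proximal stretch.

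Neighbours in the cluster mostly do not share a seed. The 63 arms held 62 distinct seeds, and a single pair shared one, AUGUAAC in miR-379-3p and miR-411-3p.
miR-379-3p: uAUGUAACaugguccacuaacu
miR-411-3p: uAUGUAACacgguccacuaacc
Both were scarce, with 17 and 35 counts over all mice. The sequence most like miR-369-3p among mouse miRNAs was miR-154-3p of the same cluster, at an edit distance of 4, and it had 18 counts against 959.

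The authors deposited raw counts, which summed to between 469117 and 1110226 per WT library and between 728653 and 1910526 per *Tet2/3* DKO library in the hairpin table, and to between 1110852 and 2582057 (WT) and between 1837631 and 4361963 (*Tet2/3* DKO) in the mature table. WT libraries were thus mostly shallower, but the ranges overlapped, and *Tet2/3* DKO replicate 7, with the lowest totals of its genotype, was below several WT libraries. Levels are given as CPM, the counts scaled to a common library total after TMM scaling. The edgeR quasi-likelihood test was fitted to all miRNAs of a table, and its p-values were adjusted over all of them by the Benjamini-Hochberg method. The haematopoietic and lymphoid list (mir-142, mir-150 and others, 4 of the 5 with a row, 3 higher and 1 lower in *Tet2/3* DKO) summed to between 72366 and 127904 CPM in WT and between 90869 and 187335 CPM in *Tet2/3* DKO, although no miRNA marks iNKT cells as such. Hairpins of other cells were lower in *Tet2/3* DKO: the list of mesenchymal stroma (6 hairpins, 4 of 4 tested lower) summed to between 62.1 and 187 CPM in WT and between 9.69 and 37.9 CPM in *Tet2/3* DKO, and that of red cells (4 hairpins, 3 of 3 tested lower) to between 802 and 2239 CPM and between 174 and 656 CPM. The myeloid hairpin mir-223 also fell, from between 20.1 and 309.9 CPM in WT to between 0 and 19.2 CPM, and the hepatocyte hairpin mir-122, too rare to be tested, was at 4.25 to 22.8 CPM and at 0 to 2.98 CPM. The lists for epithelium (4 tested of 6) and endothelium (1 of 1) had no calls, and the 6 hairpins of neural cells were not tested, at 1.43 to 27.6 CPM in WT and 2.36 to 16.8 CPM in *Tet2/3* DKO.

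The cluster as a whole was a very small part of the miRNAs of these cells. Its arms held between 0.00330% and 0.0331% of the counts of a mature library, and its hairpins between 0.00158% and 0.0207% of a hairpin library. Over all 13 mice there were 5762 counts on member arms and 1370 on member hairpins. The most abundant member by mean level, miR-369-3p, ranked 218th of the 1297 mature sequences, followed by miR-127-3p (226th) and miR-541-5p (242nd), and the top hairpin, mir-127, ranked 330th of 1127. In bulk libraries such as these, fewer cells that express a miRNA and less of it per cell cannot be told apart.

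The summed level of the cluster overlapped broadly between genotypes. The arms together were at 126 CPM at the lowest, 158 at the median and 234 at the highest in WT, and at 32.7, 149.9 and 303 CPM in *Tet2/3* DKO. Means were 171 ± 43.5 (SD, n = 6) and 166 ± 96.7 (SD, n = 7) CPM. The mean difference of log2 CPM, -0.29, was within the spread between *Tet2/3* DKO mice, whose SD on that scale was 1.09. No test was run on sums over the members, since they were listed with results known.

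The hairpins together overlapped likewise. They were at 85.9, 99.8 and 147 CPM (lowest, median and highest) in WT and at 14.9, 71.0 and 178 CPM in *Tet2/3* DKO. The difference in mean log2 CPM was -0.53, again less than the SD of 1.17 among *Tet2/3* DKO mice. *Tet2/3* DKO mice varied more than WT mice in both sums, whose SD of log2 CPM in WT was 0.28 for hairpins and 0.36 for arms.

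**Figure D1:**
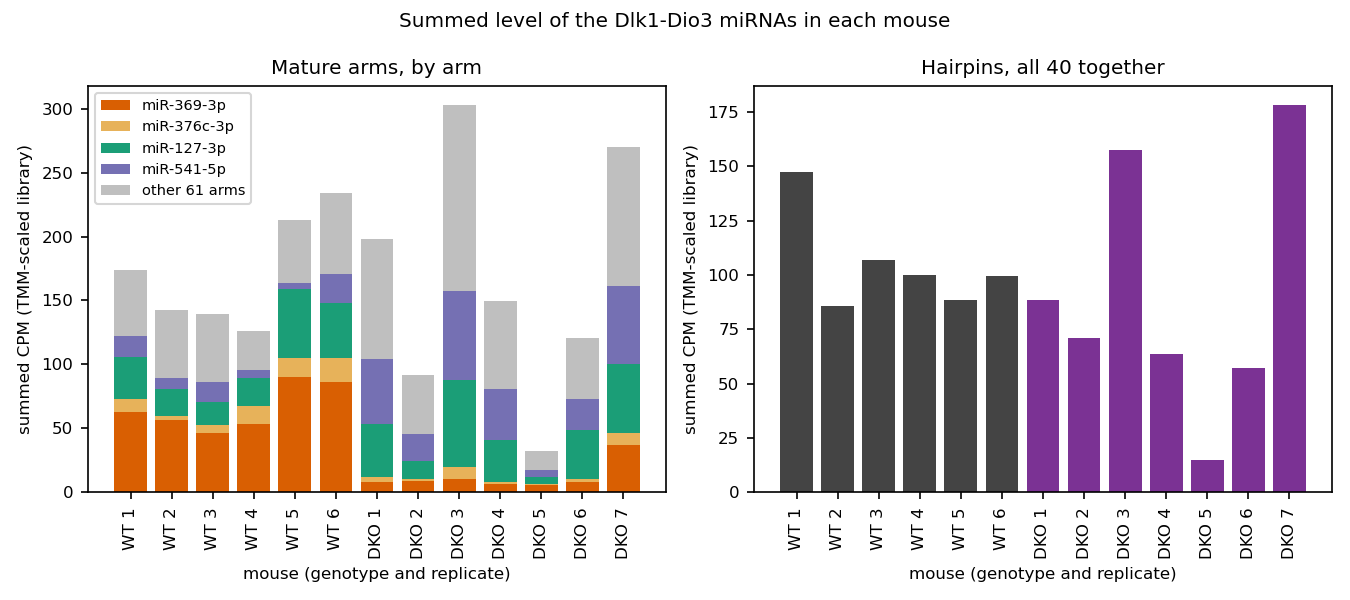
Summed CPM (TMM-scaled library) of the Dlk1-Dio3 miRNAs in each of the 6 WT and 7 *Tet2/3* DKO mice, for mature arms split by arm (left) and for hairpins (right); each bar is one library. miR-369-3p fills 33.1% to 42.2% of the member counts of WT bars and 3.53% to 17.97% of those of *Tet2/3* DKO bars, and *Tet2/3* DKO replicate 5 has the lowest bar in both panels.

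One library stood apart. *Tet2/3* DKO replicate 5 had 32.7 CPM on the arms against 91.5 to 303 CPM in the other 6 *Tet2/3* DKO mice, and 14.9 CPM on the hairpins against 57.3 to 178 CPM. It was below the other 6 in 12 of the 14 arms and in 4 of the 4 hairpins that had at least 50 counts over the *Tet2/3* DKO libraries, the exceptions being miR-300-3p and miR-495-3p. Its hairpin library was not shallow, with 1578644 counts, and its stromal sum of 23.9 CPM lay among those of the other *Tet2/3* DKO mice. Its red cell sum was higher, at 656 CPM against 174 to 449 CPM in the other 6, as was mir-122, at 2.98 against 0 to 1.98 CPM, and the endothelial hairpin mir-126a was lower, at 95.5 against 112 to 145 CPM. The part of these differences in its low level was not tested. Without it, the log2 difference of the arms' sum between genotypes changed from -0.29 to 0.05 and that of the hairpins' sum from -0.53 to -0.15.

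The make-up of the sum differed between genotypes. The largest single part of the cluster's mature counts was miR-369-3p in WT mice, with 38.5% of the 1779 pooled counts (33.1% to 42.2% in single mice), and it took 6.88% of the 3983 counts in *Tet2/3* DKO mice (3.53% to 17.97%). Conversely, miR-541-5p held 6.97% of the pooled counts in WT (2.40% to 10.9%) and 23.6% in *Tet2/3* DKO (16.4% to 26.9%). The share of miR-127-3p was 18.5% in WT and 22.02% in *Tet2/3* DKO, with overlapping ranges of 13.2% to 25.2% and 16.03% to 32.0%. When miR-369-3p was left out of the sum, an alternative chosen after seeing the data, the log2 difference of the rest was 0.27 in place of -0.29.

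Of the 65 arms, 8 had enough counts to be tested, and at an adjusted p-value under 0.05 miR-541-5p was higher in *Tet2/3* DKO, miR-369-3p and miR-376c-3p were lower, and 5 did not pass. Over all 401 mature sequences tested, 28.2% were higher and 27.4% lower, in all 55.6%, so 3 calls among 8 is not a larger share than that of the whole table. The split of calls over the whole table depends on the scaling: it was 113 higher and 110 lower with TMM, 142 and 77 with library size alone, and 89 and 132 with upper-quartile factors. The median log2 fold change of the 8 was 0.56, beside -0.01 over all tested sequences. Without *Tet2/3* DKO replicate 5, 3 arms were higher (miR-541-5p, miR-409-5p and miR-433-3p) and 2 lower, beside 107 higher and 117 lower over all mature sequences in that fit. An arm can pass the filter on low counts through the genotype in which it is high, so the results of the tested arms do not describe the 65 arms.

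Among the 8 tested arms, miR-369-3p had the largest change. It is a product of a *Mirg* exon, known for binding AU-rich elements of cytokine mRNAs. Its level was 46.2, 59.9 and 89.8 CPM (lowest, median and highest) in WT and 5.87, 8.47 and 37.2 CPM in *Tet2/3* DKO. No *Tet2/3* DKO mouse reached the lowest WT mouse, and the groups were likewise apart for 27.2% of all tested mature sequences. Of the 7 *Tet2/3* DKO mice, 6 were at 10.7 CPM or less. On the log2 scale the change was -2.47 with an SE of 0.38 (edgeR, adjusted p = 3.27e-05), also past the study's stricter rule that asks an absolute log2 fold change above 2, which 7.23% of tested sequences passed downward and 3.99% upward, and which none of the other 7 tested arms of the cluster passed. Without any one mouse it was between -3.11 and -2.40, past the threshold each time. The mouse at 37.2 CPM was *Tet2/3* DKO replicate 7, whose stromal sum was 36.6 CPM, its red cell sum 317 CPM and its myeloid hairpin 0 CPM. *Tet2/3* DKO replicate 2, with the highest stromal sum of its genotype (37.9 CPM), had miR-369-3p at 8.54 CPM. The stromal, red cell and myeloid hairpins fell between the same genotypes, and their part in the fall of miR-369-3p was not tested.

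The second arm that fell was miR-376c-3p, from a group of near-copies (mir-376a, mir-376b and mir-376c) within about 1 kb in the distal stretch, and reads of such copies may be split between them. It was at 3.07, 12.3 and 18.4 CPM in WT and at 0.511, 1.94 and 9.42 CPM in *Tet2/3* DKO. The ranges overlapped, although 4 of the 7 *Tet2/3* DKO mice were below every WT mouse. The fall was -1.63 in log2 terms, with an SE of 0.57 (edgeR, adjusted p = 0.0199). With library size in place of TMM scaling it was -1.34 with an adjusted p = 0.0543, so that the call depends on the scaling. Here too the part of the other cells' miRNAs was not tested.

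The arm that rose, miR-541-5p, comes from an intron of *Mirg*. It was at 5.10, 11.8 and 22.9 CPM in WT and at 5.36, 40.3 and 69.7 CPM in *Tet2/3* DKO. In *Tet2/3* DKO, 5 of the 7 mice were above every WT mouse, while replicate 5, at 5.36 CPM, was at the low end of the WT range. The rise was 1.68 in log2 terms, with an SE of 0.52 (edgeR, adjusted p = 0.0121), and it stayed past the threshold without any one mouse (1.42 to 1.87). In limma-voom with sample weights, which gives less weight to aberrant libraries, it was 1.51 with an adjusted p = 0.0671.

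**Figure D2:**
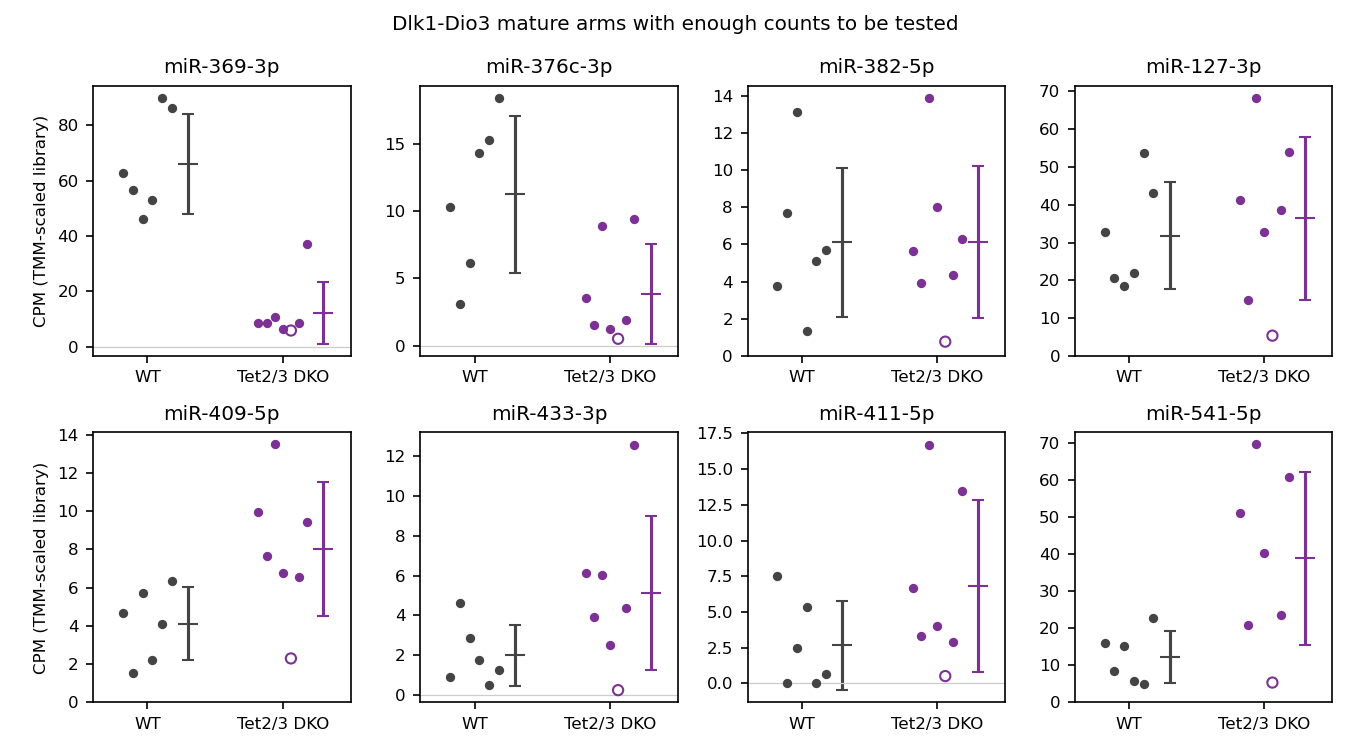
Level in each mouse (CPM of the TMM-scaled library) of the 8 Dlk1-Dio3 arms that were tested; points are mice, open points *Tet2/3* DKO replicate 5, and bars the mean ± SD of 6 WT and 7 *Tet2/3* DKO mice. miR-369-3p separates the genotypes, at 46.2 CPM or more in WT and 37.2 CPM or less in *Tet2/3* DKO, and the other arms overlap.

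The other 5 tested arms did not pass the threshold. The arm with the most counts in the cluster, miR-127-3p, which pairs perfectly with *Rtl1* mRNA, was at 18.4, 27.4 and 53.6 CPM in WT and at 5.36, 38.7 and 68.3 CPM in *Tet2/3* DKO. The difference of 0.19 on the log2 scale was smaller than its SE of 0.46 (adjusted p = 0.757, edgeR). The 4 remaining arms were each under 20 CPM in every mouse. miR-382-5p was at 1.34, 5.41 and 13.1 CPM in WT and at 0.766, 5.63 and 13.9 CPM in *Tet2/3* DKO, which differ by -0.04 on the log2 scale (SE 0.52, edgeR adjusted p = 0.953).

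Next come miR-409-5p, encoded beside miR-541-5p, and miR-433-3p, which lies opposite *Rtl1*. miR-409-5p was at 1.54, 4.39 and 6.35 CPM in WT and at 2.30, 7.66 and 13.5 CPM in *Tet2/3* DKO (0.94 on the log2 scale, SE 0.44, edgeR adjusted p = 0.0746), and 6 of 7 *Tet2/3* DKO mice were above every WT mouse. miR-433-3p was at 0.510, 1.53 and 4.61 CPM and at 0.255, 4.35 and 12.6 CPM (1.30, SE 0.64, adjusted p = 0.0925, edgeR). In each the lowest *Tet2/3* DKO mouse was replicate 5, and without it the adjusted p-values were 0.0303 and 0.0268 (edgeR). In limma-voom with sample weights miR-433-3p was at 0.51 on the log2 scale in place of 1.30 (adjusted p = 0.522). miR-411-5p was at 0, 1.55 and 7.51 CPM in WT and at 0.511, 4.00 and 16.7 CPM in *Tet2/3* DKO, which is 1.34 higher on the log2 scale (SE 0.79, edgeR adjusted p = 0.163).

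**Figure D3:**
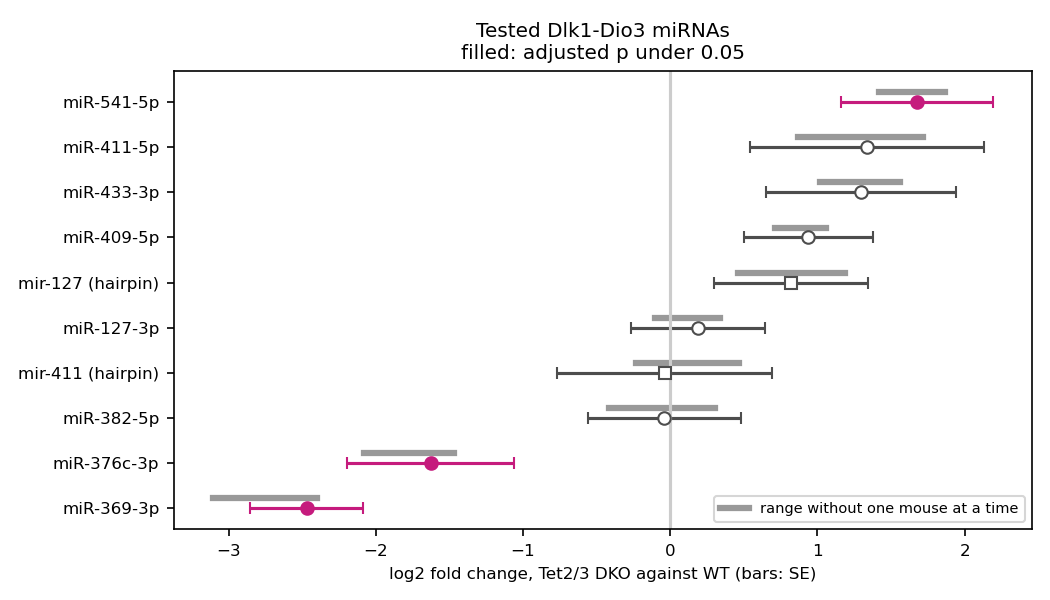
Log2 fold change of *Tet2/3* DKO against WT for the 8 arms (circles) and 2 hairpins (squares) of the cluster that were tested, with SE as thin bars and the range found without one mouse at a time as grey bars; filled symbols have an adjusted p-value under 0.05 (edgeR). Grey bars cover 13 fits, but only 6 for mir-411 (those without a WT mouse) and 8 for miR-433-3p, which were not tested in the rest. miR-369-3p at -2.47 and miR-376c-3p at -1.63 lie left of zero and miR-541-5p at 1.68 lies right of it, over their whole leave-one-out ranges.

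Only 2 of the 40 member hairpins had enough counts to be tested, and neither passed. Over all 350 hairpins tested (114 higher and 95 lower with TMM, 153 and 56 with library size alone, 93 and 137 with upper-quartile factors), 32.6% were higher and 27.1% lower in *Tet2/3* DKO, 59.7% together, and 1.71% and 6.57% also passed the stricter rule. Both members also had an unadjusted p above 0.05 in edgeR (0 of 2 below it). DESeq2 gave an adjusted p for 22 of the 40 and called 0 higher and 3 lower. Over all hairpins DESeq2 called 15.0% higher and 22.6% lower, so the members' share was not larger. Hairpin mmu-mir-127 was at 1.83, 9.83 and 19.96 CPM in WT and at 4.77, 13.7 and 41.2 CPM in *Tet2/3* DKO (log2 fold change 0.82, SE 0.52, adjusted p = 0.185, edgeR). For mmu-mir-411 the values were 0, 7.13 and 17.3 CPM and 0, 8.41 and 22.4 CPM (-0.04, SE 0.73), a difference whose sign changes with library size scaling. The genotypes overlapped in both hairpins.

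Most of the cluster was too scarce for that test. No count reached 10 in any library for 26 of the 40 hairpins and 40 of the 65 arms, and 20 hairpins and 37 arms were seen in 6 or fewer of the 13 libraries. Counts in *Tet2/3* DKO libraries alone were found for 6 hairpins and 20 arms, and in WT libraries alone for 0 of each, in libraries of unequal depth. The like share over all miRNAs was not counted, so these numbers do not show a trait of the cluster. Brought to the smallest total of each table, a WT library would show 18.1 to 23.4 of the 65 arms and a *Tet2/3* DKO library 25.1 to 43.0, except replicate 5 with 14.1. For hairpins the ranges overlapped, with 11.8 to 17.0 of 40 in WT and 13.6 to 20.8 in *Tet2/3* DKO, again except replicate 5 (3.66). Over all mature sequences the numbers at that total were 590 to 606 in WT and 597 to 661 in *Tet2/3* DKO. Thinned instead to the smallest TMM-scaled size, an alternative chosen after seeing the data, WT libraries would show 18.7 to 23.6 member arms and *Tet2/3* DKO libraries 23.002 to 41.6, replicate 5 being at 13.8, so that replicate 2 was then within the WT range.

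Pooled over the mice of a genotype, 23 of the 32 arms with at least 20 counts in all (71.9%) were higher in *Tet2/3* DKO, beside 302 of all 640 such mature sequences (47.2%). Among hairpins it was 8 of 16 beside 257 of 638 (40.3%). The limit of 20 is on raw counts, and the *Tet2/3* DKO libraries were mostly deeper. A rare arm could thus pass it through its *Tet2/3* DKO counts, as miR-134-5p did with 0 counts in WT and 38 in *Tet2/3* DKO. The difference between members and all sequences can come in part from this choice. Members share libraries and a domain, so these counts are descriptions without a test.

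**Figure D4:**
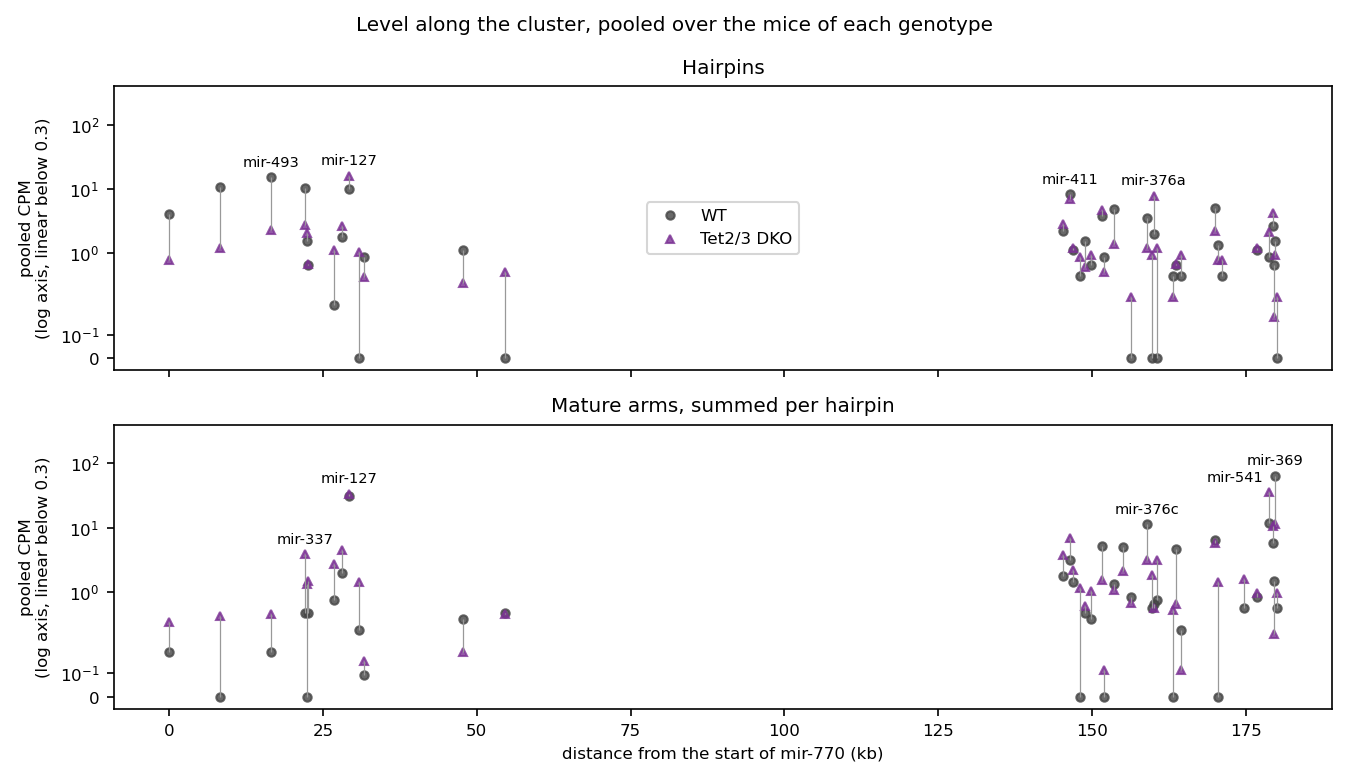
Level of each Dlk1-Dio3 member pooled over the mice of a genotype (CPM, log axis that is linear below 0.3), against the distance of its hairpin from the start of mir-770 in kb, for hairpins (top) and for mature arms summed per hairpin (bottom); lines join the 2 genotypes of a member. The first 4 hairpins (mir-770, mir-673, mir-493 and mir-337) are higher in WT, and the arms of mir-541 and mir-369, which differ in opposite directions, lie close to each other at the distal end.

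Among the members left out by the filter, several had counts that differed between genotypes when all sequences with at least 1 count were fitted. In that fit of 1286 mature sequences, in which 10.1% were called higher and 11.0% lower, 5 of the 65 arms were higher (miR-134-5p, miR-337-5p, miR-380-3p, miR-540-3p and miR-541-5p) and 3 lower (miR-369-3p, miR-376c-3p and miR-487b-3p). DESeq2 gave an adjusted p for 38 member arms and called 5 higher (miR-134-5p, miR-300-3p, miR-337-5p, miR-540-3p and miR-541-5p) and 5 lower (miR-369-3p, miR-376c-3p, miR-487b-3p, miR-494-3p and miR-495-3p), where 18.8% of all were higher and 18.5% lower. In either direction 21.2% of all sequences were called in that edgeR fit and 37.4% in DESeq2, and the members' share was smaller in both. So 8 arms besides the 3 tested ones were called by one tool or the other. The share of all sequences called by either tool was not counted, so this number does not show a trait of the cluster. Of these, miR-134-5p, miR-380-3p and miR-540-3p are outside the 10 most counted and were picked with their values in view.

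The clearest of the scarce arms was miR-337-5p of the proximal stretch (chr12:109585818-109585839). Its counts in WT were 0 in all but 1 mouse, which had 1, while in *Tet2/3* DKO they were 1, 13 and 35 at the lowest, median and highest. Pooled levels were 0.0945 and 3.88 CPM, a ratio of 41.0 with a 95% exact interval from 7.20 to 1636 that covers counting error only. The adjusted p was 0.000144 (edgeR) and 0.000277 (DESeq2). The arm was thus seen in 7 of 7 *Tet2/3* DKO mice.

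A pair of further arms, miR-134-5p and miR-540-3p, was at 0 in every WT mouse and was seen in 6 of 7 *Tet2/3* DKO mice. miR-134-5p, known from neurons, where it restrains the growth of dendritic spines, had 38 counts in *Tet2/3* DKO and was at least 5.09-fold higher there, with 3 pooled counts (0.284 CPM) as the limit that a count of 0 in WT allows. miR-540-3p had 32 counts and was at least 4.29-fold higher. miR-380-3p had 24 counts in 4 of 7 *Tet2/3* DKO mice and was at least 3.22-fold higher. These folds set the pooled *Tet2/3* DKO level against that limit and leave out the spread between mice. The adjusted p-values in edgeR without the filter were 0.00753, 0.0190 and 0.0432 for miR-134-5p, miR-540-3p and miR-380-3p. In DESeq2 they were 0.0189, 0.0499 and 0.204, so that miR-380-3p did not pass there. No count of these 3 arms in a single mouse exceeded 12.

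The scarce arms called lower were seen in every WT mouse. miR-487b-3p had 3, 6.5 and 19 counts (lowest, median and highest) in the mostly shallower WT libraries and 0, 2 and 8 in *Tet2/3* DKO (log2 fold change -2.68, SE 0.79, adjusted p = 0.00545, edgeR without the filter). miR-494-3p had 4, 8.5 and 16 counts and 2, 4 and 10 counts (-1.65, SE 0.68, adjusted p = 0.0665). miR-495-3p had 4, 8.5 and 15 counts and 5, 6 and 15 counts (-1.22, SE 0.64, adjusted p = 0.167). The last 2 passed the threshold in DESeq2 alone, with adjusted p-values of 0.00991 and 0.0362.

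The rest of the 10 most counted arms that were not tested did not pass in edgeR. miR-300-3p had 8 counts in WT and 82 in *Tet2/3* DKO, or 0.756 and 3.12 CPM pooled (adjusted p = 0.0517 in edgeR and 0.0240 in DESeq2). For miR-431-5p the pooled levels were 0.756 and 2.77 CPM, for miR-379-5p 1.80 and 3.08 CPM, and for miR-409-3p 1.61 and 3.04 CPM. miR-376b-3p was at 0.473 and 1.67 CPM and miR-299a-5p at 0.945 and 1.33 CPM. Each of these 6 was higher in *Tet2/3* DKO in the pooled libraries. The other 47 arms had between 1 and 41 counts over all 13 mice.

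Without the filter the hairpins gave a different set. Of 1115 hairpins fitted, 11.8% were higher and 14.0% lower, and among the 40 members mir-376a was higher and mir-673 and mir-493 were lower in *Tet2/3* DKO. DESeq2 called mir-673, mir-493 and mir-337 lower and none higher, where 15.0% of all were higher and 22.6% lower. The 3 hairpins that were lower follow one another in the proximal stretch, within about 14 kb.

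Hairpin mir-673 had 6 to 10 counts in each WT library (median 8), and 0 in 5 of the 7 *Tet2/3* DKO libraries, which were mostly deeper, with 2 in replicate 6 and 12 in replicate 7. Its pooled levels were 10.7 and 1.21 CPM (log2 fold change -2.53, SE 0.83, adjusted p = 0.0125, edgeR without the filter). mir-493 had 2, 8.5 and 25 counts in WT and 0, 4 and 8 in *Tet2/3* DKO, or 15.2 and 2.34 CPM pooled (-2.39, SE 0.71, adjusted p = 0.00505). mir-337 had 2, 9 and 12 counts and 0, 5 and 8 counts, or 10.5 and 2.77 CPM pooled (-1.77, SE 0.74, adjusted p = 0.0601, and 0.00732 in DESeq2). Hairpin mir-337 thus had its higher pooled level in WT, and its 5p arm, miR-337-5p, in *Tet2/3* DKO.

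The hairpin that rose, mir-376a, lies among the mir-376 copies. It had 0, 0.5 and 4 counts in WT and 1, 10 and 36 in *Tet2/3* DKO, or 2.01 and 7.87 CPM pooled (log2 fold change 2.39, SE 0.81, adjusted p = 0.0160 in edgeR without the filter and 0.0666 in DESeq2). Its copy mir-376c had 3.58 and 1.21 CPM pooled, in the other direction. The remaining hairpins among the 10 most counted were mir-494 (3.8 and 4.76 CPM), mir-409 (2.68 and 4.24), mir-382 (5.14 and 2.25), mir-379 (2.24 and 2.85), mir-433 (1.79 and 2.68) and mir-543 (4.92 and 1.38 CPM), given as pooled level in WT and then in *Tet2/3* DKO. None of these 6 passed. The other 28 hairpins had between 3 and 31 counts over all mice.

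For most members the mature table held more counts than the hairpin table, with a median of 2.8 arm counts per hairpin count over 39 members, but the ratio ranged widely. At one end, mir-369 had 989 arm counts and 18 hairpin counts, and mir-541 had 1062 and 29. These members, which hold the tested arms with the largest fall and rise, were hardly seen as hairpins. At the other end, mir-493 had 14 arm counts and 95 hairpin counts, mir-673 11 and 62, and mir-376a 22 and 100. These last 3 are the hairpins that edgeR called without the filter. mir-337, which DESeq2 called too, had 108 arm counts and 79 hairpin counts.

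Which arm was kept differed from member to member. miR-127 was almost wholly 3p, with 0 of 329 counts on the 5p arm in WT, which allows a share of up to 1.11% (95% exact interval, counting error only), and 7 of 884 in *Tet2/3* DKO (0.792%). By contrast, mir-411 gave mainly the 5p arm, at 81.8% (64.5% to 93.0%) in WT and 83.9% (77.7% to 88.9%) in *Tet2/3* DKO, and mir-409 did so at 72.1% (59.2% to 82.9%) and 71.5% (65.9% to 76.7%). The intervals of the genotypes overlapped in these 3 members.

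Of the 21 members with counts on an arm in both genotypes and both arms listed, the intervals were apart in 3, mir-337, mir-667 and mir-369. The like share over all miRNAs was not counted, so this number does not show a trait of the cluster. mir-337 had 1 and 4 counts on the 5p and 3p arms in WT (a 5p share of 20%, 0.505% to 71.6%) and 102 and 1 in *Tet2/3* DKO (99.0%, 94.7% to 99.98%). For mir-667 these were 9 and 0 in WT (100%, 66.4% to 100%) and 1 and 17 in *Tet2/3* DKO (5.56%, 0.141% to 27.3%). All 9 WT counts of miR-667-5p came from 1 mouse, and so did the 4 WT counts of miR-337-3p. The WT shares of mir-667 and mir-337 thus rest on 1 mouse per arm seen. The third, mir-369, had the most counts. In WT the 5p arm had 1 count and the 3p arm 685, a 5p share of 0.146% (95% exact interval 0.00369% to 0.809%), and in *Tet2/3* DKO they had 29 and 274, a share of 9.57% (6.50% to 13.5%). The intervals cover counting error only and no test over mice was run. The counts of miR-369-5p were in 4 of the 7 *Tet2/3* DKO mice, with 5 to 10 each and 0 in the other 3. Its pooled ratio between genotypes was 11.7 with a 95% exact interval from 1.93 to 476, and over mice the difference did not pass (adjusted p = 0.116 in edgeR without the filter and 0.186 in DESeq2).

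Sums over the stretches of the cluster overlapped too, though for the proximal hairpins in few mice. In the proximal stretch the hairpins' sum was 57.2 ± 16.01 (SD, n = 6) against 35.9 ± 22.96 (SD, n = 7) CPM, and the arms' sum was 36.5 ± 13.2 against 54.3 ± 31.3 CPM. For these hairpins most *Tet2/3* DKO mice (median 26.9 CPM) were below the lowest WT mouse (40.3 CPM). Replicates 3 and 7, at 65.4 and 70.8 CPM, were within the WT range. The difference in mean log2 CPM was -0.90, less than the SD of 0.97 among *Tet2/3* DKO mice. In the distal stretch the hairpins' sum was 46.5 ± 8.84 against 53.2 ± 34.1 CPM and the arms' sum 134 ± 30.8 against 111 ± 67.2 CPM. Without miR-369-3p the distal arms were at 68.3 ± 16.4 and 99.1 ± 60.7 CPM. The genotypes overlapped in each of these sums. The pair within *Rian*, mir-341 and mir-370, had 15 hairpin counts and 26 arm counts in all.

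Other miRNAs inside the same span that are not members (12 hairpins and 11 arms) were scarcer still, and 0 of them had enough counts to be tested. Of miRNAs from other imprinted loci, 3 hairpins and 4 arms were tested. In *Gnas*, mir-298 was higher in *Tet2/3* DKO (log2 fold change 0.68, SE 0.26, adjusted p = 0.0300, edgeR), as was miR-298-5p (0.98, SE 0.21, adjusted p = 0.000705, edgeR). The *Igf2* hairpin mir-483 (-1.81, adjusted p = 0.0185, edgeR) and miR-335-5p of *Mest* (-1.68, adjusted p = 2.03e-05, edgeR) were lower. The hairpin mir-335 and its 3p arm, too rare to be tested, went the other way. Pooled levels in WT and *Tet2/3* DKO were 0.224 and 3.63 CPM for the hairpin, and 0.567 and 1.67 CPM for miR-335-3p. The other 3 tested, mir-296 (0.18), miR-296-5p (0.38) and miR-296-3p (0.40), did not pass (adjusted p = 0.487, 0.0537 and 0.131, edgeR). These 4 calls among 7 tested are a share near the 59.7% and 55.6% called in the whole tables.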

How the data were processed

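Small RNA-seq libraries of thymic iNKT cells from 6 WT and 7 *Tet2/3* DKO mice were used, 1 per mouse. The authors prepared them with a small RNA kit, processed the reads with nf-core/smrnaseq at default settings and deposited raw counts per hairpin and per mature sequence, without normalization. The submitters' processing notes name the build mm10. The aligner, the miRNA database release and the counting of reads that match several sequences are not given in the sources used here, nor whether a read can be in both tables. The genotype and replicate number in a column's name gave its mouse, and 0 value columns stayed unused.

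Rare miRNAs were removed by filterByExpr (edgeR 4.0.16) at a minimum of 10 counts and of 15 in total, with the genotypes as groups, libraries were scaled by TMM, and the robust quasi-likelihood test compared genotypes over all 13 mice, with Benjamini-Hochberg adjustment over the whole table and a threshold of 0.05. The SE is the log2 fold change over the square root of F. Alternatives were other scalings, other count filters, DESeq2 1.42.0, limma-voom with sample weights (limma 3.58.1), replicate number as a block and leaving out each mouse. R 4.3.3, Python 3.11.15, SciPy 1.17.1 and matplotlib 3.10.9 were used, and the test was tried on simulated counts. The simulation gave every miRNA the same spread between mice and had no outlying library. It therefore does not cover members as variable as those here.

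The members, the marker lists and the lists of neighbours were chosen with earlier results of these data known. Named were every tested member, the 10 most counted untested members of each table, and, chosen after their values were seen, members called only in an alternative. Totals per library are given in the results. No 2 libraries of one genotype agreed within sampling noise. Mice are the replicates. Intervals from counts cover counting error only, because the counts were pooled over the mice of a genotype. No molecular identifiers were used here, so reads copied from one molecule could make these intervals too narrow.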

Additional observations from a re-analysis of the deposited data

Results flagged for a closer look

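In 34 groups of 6 or 7 values, each a member, a sum or a number of members detected in one genotype, the mouse at the end of the range was compared with its nearest neighbour by Dixon's criterion, which chance passes in about 1 in 20 groups. It was passed 3 times, each time in *Tet2/3* DKO. The number of member hairpins expected at the smallest library total was 3.66 in replicate 5 and 13.6 in the next lowest mouse. miR-409-5p was at 1.28 log2 CPM in the same replicate and at 2.73 in the next lowest mouse. miR-369-3p was at 5.23 log2 CPM in replicate 7 and at 3.44 in the next highest mouse, and its fold change was larger without that replicate.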

How the results depend on the processing

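The sign and call of miR-369-3p held in 13 of 13 fits without one mouse (-3.11 to -2.40) and in 8 of 8 other settings (-3.09 to -2.17). Scaling by library size alone moved the median log2 fold change of all hairpins from 0.02 to 0.36 and of all mature miRNAs from -0.01 to 0.24. With it, the whole-table calls were 153 higher and 56 lower hairpins in place of 114 and 95, 2 member arms were higher (miR-409-5p joined, at 1.18) and 1 was lower. Without a filter the whole-table count of lower hairpins was 156, member hairpins were 1 higher and 2 lower, and 5 member arms were higher; with DESeq2 these were 164, 3 lower member hairpins, and 5 higher and 5 lower arms. In limma-voom 0 member arms were higher, and with at least 10 counts in every library, where 3 member arms and 0 member hairpins were left, 1 was lower. Over all mature miRNAs the calls were 142 higher and 77 lower with library size, and 130 and 142 without a filter. They were 129 and 127 with DESeq2, 111 and 119 in limma-voom, and 87 and 80 with at least 10 counts in every library. With the replicate block they were 103 and 122. Leaving out one mouse at a time gave 1 to 3 higher member arms, 3 of them without *Tet2/3* DKO replicate 5, and 2 to 3 lower ones, 3 without WT replicate 2 or WT replicate 4. Over all mature miRNAs those fits gave 97 to 109 higher and 109 to 125 lower. Signs that turned were those of differences near 0: mir-411 was 0.30 with library size and 0.18 without a filter (-0.23 to 0.47 in the 6 fits without one WT mouse, and not tested in those without one *Tet2/3* DKO mouse), miR-382-5p 0.20, 0.038 and, in DESeq2, 0.0066 (-0.41 to 0.30 without one mouse), and miR-127-3p -0.10 to 0.34 without one mouse. The cause of these changes was not tested. Replicate numbers were shared between genotypes without a stated link, and same-numbered mice did not deviate together in every pair (r from -0.05 to 0.34 for hairpins and from 0.01 to 0.34 for mature miRNAs), so the block is no paired analysis; with the replicate block miR-127-3p was at -0.16 and the calls of member arms were 1 higher and 2 lower. Depth limits most of the cluster: 57 of 65 arms and 38 of 40 hairpins had too few counts for the filtered test.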
